A study of Mus musculus with 4 samples.

Results

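The Golgi genes described here are 38 genes that encode golgins, stacking proteins, tethers and the conserved oligomeric Golgi (COG) complex, together with the regulators and targets of the Golgi stress response. They were taken by symbol from a table of 34866 genes measured by RNA sequencing in the gastric corpus mucosa of mice. The study asked how loss of Muc6, the gel-forming mucin made by gland mucous cells, relates to gastric carcinogenesis. The wild-type group was Muc6 +/+ (2 libraries) and the other group was Muc6 -/- (knockout, 2 libraries). Age, sex, strain and the way the allele was made are not described in the labels. Nothing in the labels ties libraries to separate mice, so p-values measure the spread between these libraries, which may be technical.

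The Golgi apparatus is a stack of flattened cisternae in which proteins leaving the endoplasmic reticulum are glycosylated and sorted, and gastric mucous and zymogen cells pass large amounts of secreted protein through it. Golgins are coiled-coil proteins that hold the stack together and catch transport vesicles, the GRASP proteins link cisternae, and the COG complex returns glycosylation enzymes to their own cisternae. When the Golgi is overloaded or its glycosylation is disturbed, the Golgi stress response raises transcripts of Golgi components through several branches, of which the TFE3, CREB3, HSP47, proteoglycan and mucin branches are known.

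Sequences upstream of the RefSeq transcription start (build GRCm38.p6) were searched on both strands for 4 known stress and transcription factor elements, among them the Golgi stress element, the site through which TFE3 raises Golgi genes. Of the 38 genes, 33 matched an entry, with 40 start sites among them. Acbd3, Golga4, Golga7, Golgb1 and Uap1l1 did not match. In the 250 bases before the start, the Golgi apparatus stress response element, ACGTGGC, was found in 3 of the 33 genes (Uso1, Creb3 and Cog3) and in 2.02% of the 32851 start sites of the table. The E-box CACGTG, which TFE3 and TFEB bind, was found in 4 genes (Golim4, Uso1, Rab20 and Golga5) and in 6.02% of start sites. The cyclic AMP response element TGACGTCA was found in Golph3 and Gosr2 and in 1.55% of start sites, and the endoplasmic reticulum stress element (ERSE) in none of the 33 genes and in 0.113% of start sites. A gene was counted if any of its start sites matched, while the shares are over start sites. The counts and the shares therefore cannot be compared directly. The stress element and the E-box share the letters ACGTG and can overlap, but no match here did. The sequences below are those of Golim4, which had the largest difference of the 38 genes, of the 3 genes with a stress element, and of Rab20, a TFE3 target with an E-box. Capitals mark the stress element or, in Golim4 and Rab20, the E-box (that of Uso1 is left in lower case). The stress element reads in reverse complement (GCCACGT) in Uso1 and Cog3. Golim4 (chr3:75956950-75957199, minus strand) and Uso1 (chr5:92137688-92137937, plus strand) are shown for all 250 bases. The others are shown with 10 bases on either side, Creb3 from chr4:43562542-43562568 (plus strand), Cog3 from chr14:75754599-75754625 (minus strand) and Rab20 from chr8:11478671-11478696 (minus strand).
Golim4: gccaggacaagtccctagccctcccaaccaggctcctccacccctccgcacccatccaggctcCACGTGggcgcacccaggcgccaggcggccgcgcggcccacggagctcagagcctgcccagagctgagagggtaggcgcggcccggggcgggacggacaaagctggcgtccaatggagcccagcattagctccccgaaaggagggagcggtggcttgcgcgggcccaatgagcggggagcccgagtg
Uso1: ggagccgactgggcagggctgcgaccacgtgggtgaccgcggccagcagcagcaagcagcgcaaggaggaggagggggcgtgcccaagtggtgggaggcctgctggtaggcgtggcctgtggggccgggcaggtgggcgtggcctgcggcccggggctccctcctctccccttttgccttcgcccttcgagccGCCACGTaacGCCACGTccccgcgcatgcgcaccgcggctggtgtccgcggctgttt
Creb3: agcccccgggACGTGGCgcagcccagg
Cog3: tccgtcgaaaGCCACGTctgttttggc
Rab20: gccgggcaccCACGTGgtcgcagggc
Uso1 held 2 stress elements, at positions -57 to -51 and -47 to -41 counted from the start, in addition to its E-box at -225 to -220. Creb3 held its element at -106 to -100 and Cog3 at -122 to -116. Golim4 held its E-box at -187 to -182 and Rab20 at -46 to -41. The stretches shown for Creb3 and Rab20 lie inside these genes in the GENCODE annotation. There Creb3 begins at 43562332 and Rab20, on the minus strand, at 11478710. These matches are thus upstream of the RefSeq start used but not of the GENCODE gene start.

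Total counts ranged from 20327745 to 27946423 per library. Muc6 was at 345 and 313 CPM (counts scaled to a common library size) in wild type 1 and 2, against 0 and 0.413 CPM in knockout 1 and 2. Corpus markers were present in all libraries, but the 10 parietal cell genes listed, none at 0, summed to 20566 and 19503 CPM in Muc6 +/+ mucosa, against 2155 and 7283 CPM in Muc6 -/- mucosa. The 5 surface pit cell genes, none at 0, summed to 114985 and 76948 CPM in wild type, against 64799 and 51718 CPM in knockout. Of these, 4 were lower without overlap, beside 23.8% of all genes tested. Golgb1 and Golga4, below, fell in the same order of libraries as this sum. The 7 enteroendocrine genes, 1 of them at 0 in wild type 2 and in knockout 2, summed to 531 and 1134 CPM against 111 and 502 CPM. Knockout 1 stood apart: 8 chief cell genes, of which 1 was at 0 there, summed to 2402 CPM against 77196 CPM or more in the other libraries, 3 antral genes, all detected there, to 191 CPM against at most 2.97, and 7 forestomach genes, 3 of them at 0 in every library, to 130.2 CPM against at most 10.7. Beside them, 8 mucous neck and metaplasia genes, of which Muc6 was at 0 in knockout 1, summed to 1461 and 1118 CPM in Muc6 +/+ mucosa, against 12670 and 8464 CPM in Muc6 -/- mucosa. Most of the latter was Tff2, at 11709 and 7314 CPM. Of the 8 genes, 6 were higher without overlap, beside 26.3% of all genes tested. A4gnt overlapped, at 70.3 and 82.8 CPM in wild type, against 56.7 and 283 CPM in knockout 1 and 2. The 7 proliferation genes, none at 0, summed to 264 and 201 CPM in Muc6 +/+ mucosa, against 498 and 436 CPM in Muc6 -/- mucosa. All 7 were higher without overlap, again beside 26.3% of all genes tested. Both sums were higher in both knockout libraries, as were Golim4, Atp2c2 and Galnt5 below. The 4 Y-linked genes summed to 136 and 121 CPM in Muc6 +/+ mucosa, against 1.45 and 2.44 CPM in Muc6 -/- mucosa, so genotype and Y-linked expression cannot be told apart. Sex is not given in the labels, and a difference in sex between the groups cannot be told apart from genotype for any gene. In mucosa sampled as bulk tissue, fewer cells of a type and less RNA per cell cannot be told apart. The part of these differences in the results below was not tested. Values without knockout 1 are given for many genes but cannot test it. Knockout 2 also had lower parietal, surface pit, enteroendocrine and Y-linked sums, and higher mucous neck and proliferation sums, than wild type. Leaving out a library also moved the median over all genes, as given further below.

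The 38 Golgi genes differed little between the genotypes as a group. All 38 passed the filter on low counts, with counts between 124 and 24050 in a library. No member passed edgeR's quasi-likelihood test with Benjamini-Hochberg adjustment over all 14067 genes tested (0 of 38), and 0% of all genes tested did. At an unadjusted p below 0.05 there were 2 members, Golim4 and Cog7, beside 2236 of all genes (15.9%). DESeq2 called 1 member, Golim4, beside 7.42% of all genes, and limma voom called none of either. The lowest adjusted p of a member by edgeR was 0.217, for Golim4, and the lowest of any gene was 0.104.

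Members lay on both sides of wild type. The log2 fold change was above 0 for 22 and below 0 for 16, with a median of 0.04, and it was above 0 for 49.9% of all genes tested. The libraries of the genotypes did not overlap in 9 members that were higher in knockout, beside 26.3% of all genes, and in 7 that were lower, beside 23.8%. The other 22 overlapped. No member had a log2 fold change of 1 or more in size, beside 15.5% of all genes, and the median size was 0.118 against 0.328 over all genes. Members also differed less than all genes between libraries of the same genotype, as given below. In 23 members the difference was smaller than its own standard error (SE), whose median was 0.17. Serpinh1 had the widest SE, at 1.24, followed by Golm1 at 0.327. Exons of 14 members overlap another gene of the table, which makes their counts uncertain. For Cog8 and Tmem165 that gene lies on the same strand, and for the rest on the opposite strand, where the use of strand in counting is not stated. Cog8 shares 1306 bases with Pdf and Tmem165 shares 59 with Apc-ps1, which strand cannot separate. Summed over the members, the level was 3626 and 3064 CPM in wild type, against 3669 and 3253 CPM in knockout, and these overlapped.

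**Figure D1:**
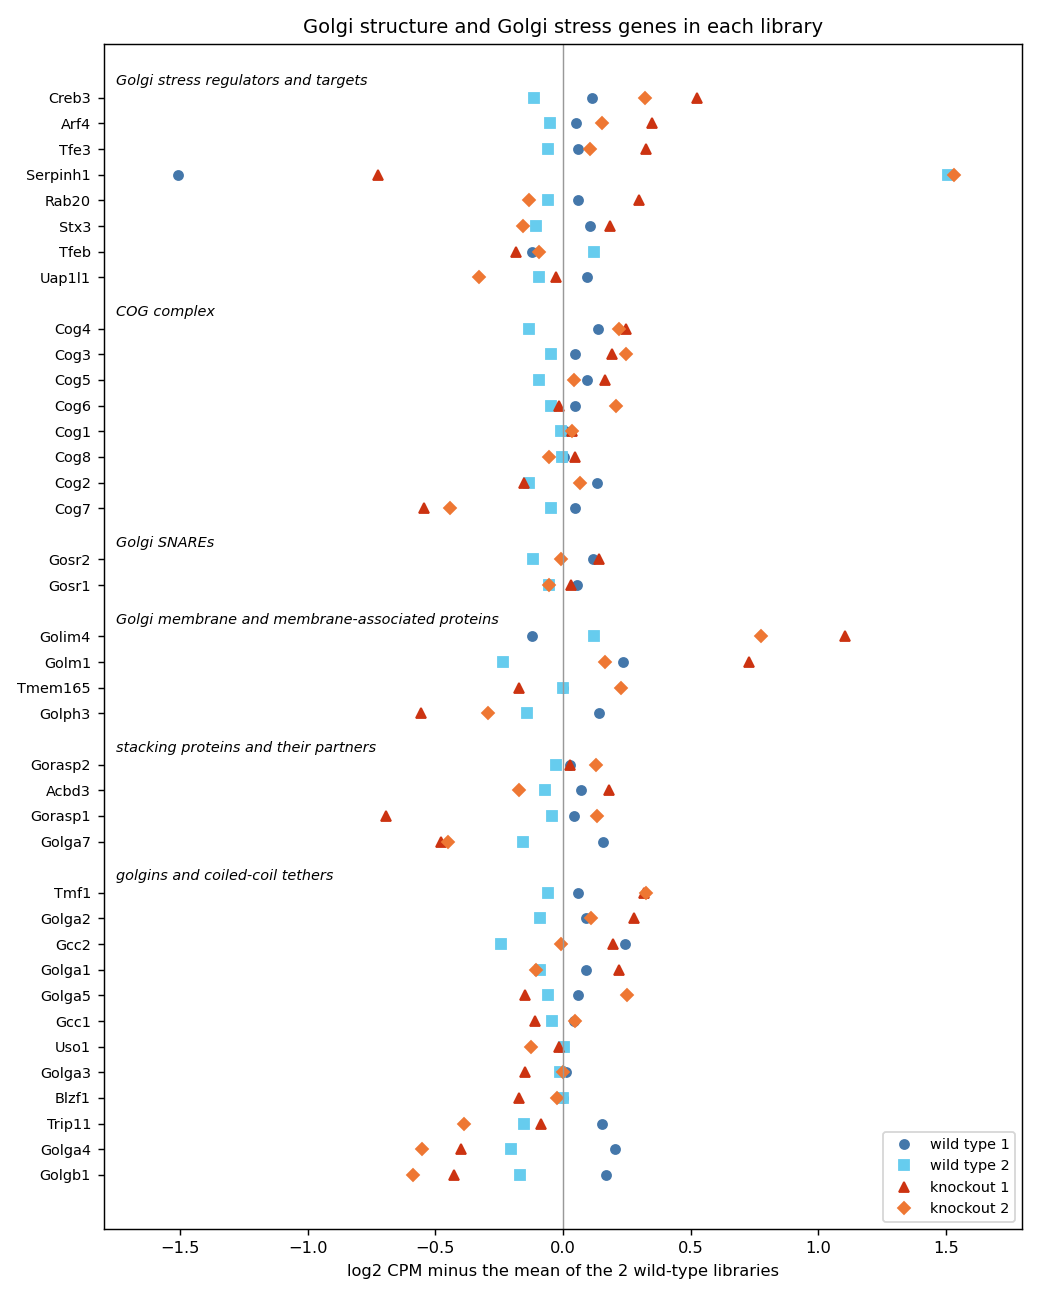
Level of each of the 38 genes in the 4 libraries, as log2 CPM minus the mean of the 2 wild-type libraries, ordered within each role by log2 fold change. Golim4 lies right of wild type in both knockout libraries and Cog7, Golgb1, Golga4, Golga7 and Golph3 left of it, while Serpinh1 splits by library number and not by genotype.

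**Figure D2:**
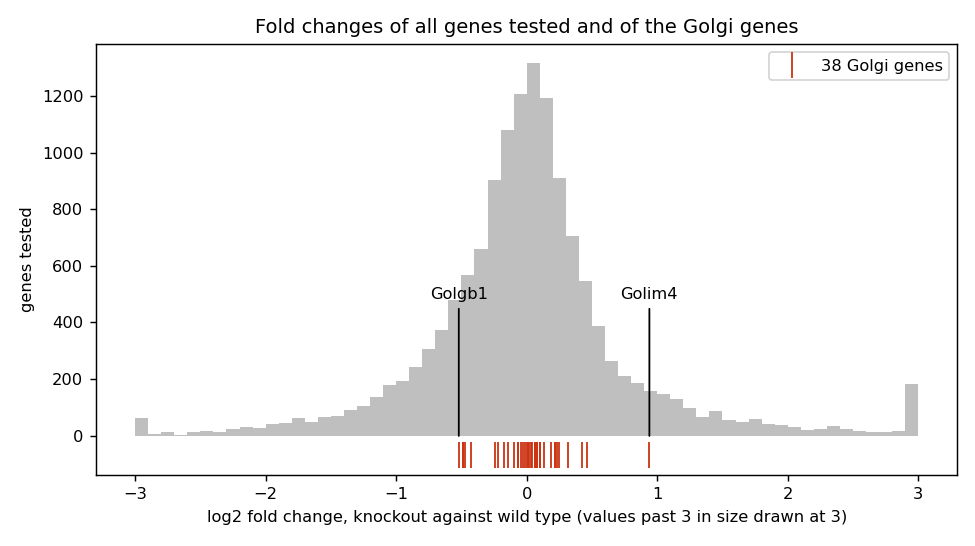
Number of genes tested by log2 fold change (grey bars, 14067 genes) with the 38 Golgi genes as red ticks. All ticks lie between -0.52 (Golgb1) and 0.94 (Golim4).

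The golgins and coiled-coil tethers had 5 members higher and 7 lower, with a median log2 fold change of -0.05 and none called. The most different was Golgb1, which encodes giantin, the large membrane-anchored golgin of the cisternal rims (ENSMUSG00000034243.16, chromosome 16, 36875140 to 36933085, mm10). It was at 170 and 135 CPM in Muc6 +/+ mucosa, against 112 and 101 CPM in Muc6 -/- mucosa, with both knockout libraries below both wild-type libraries (log2 fold change -0.52 with an SE of 0.19 for n = 2 against 2, edgeR adjusted p = 0.324). The value was -0.64 without knockout 1 and -0.33 without wild type 1. Golga4, which encodes golgin-245, a trans-Golgi vesicle catcher (chromosome 9, 118506267 to 118582519), was at 385 and 291 CPM in Muc6 +/+ mucosa, against 253 and 228 CPM in Muc6 -/- mucosa. Its libraries did not overlap either, although the wild-type libraries lay farther from each other than wild type 2 did from knockout 1 (-0.49 ± 0.23, -0.61 without knockout 1 and -0.27 without wild type 1). Golga2, which encodes GM130, the cis-Golgi partner of GRASP65 and a TFE3 target, went the other way. It was at 94.9 and 83.7 CPM in Muc6 +/+ mucosa, against 108 and 96.3 CPM in Muc6 -/- mucosa, so that knockout 2 lay just above wild type 1 (0.19 ± 0.16, 0.06 without knockout 1, 0.10 without wild type 2 and 0.29 without wild type 1).

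Uso1, which encodes p115, the tether that binds GM130 and giantin, was the gene with 2 stress elements. It was at 119.7 and 120.4 CPM in Muc6 +/+ mucosa, against 118.9 and 110.1 CPM in Muc6 -/- mucosa. Its libraries were lower in knockout without overlap, but by little (log2 fold change -0.07 ± 0.15). Tmf1, a Rab6-binding golgin, was at 35.9 and 33.1 CPM in Muc6 +/+ mucosa, against 42.9 and 43.1 CPM in Muc6 -/- mucosa (0.32 ± 0.12, edgeR adjusted p = 0.331). Blzf1 (golgin-45) was the remaining member without overlap, lower by 0.10 on the log2 scale. The other 6 tethers overlapped between the genotypes, and their log2 fold changes lay between -0.24 (Trip11, GMAP-210) and 0.08 (Gcc2, GCC185), with Golga1 at 0.06, Golga5 at 0.06, Gcc1 at -0.03 and Golga3 at -0.07.

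The stacking protein genes Gorasp1 and Gorasp2, and Acbd3 and Golga7 grouped with them, were not called, with 2 members higher and 2 lower. Gorasp1, which encodes GRASP65 of the cis cisternae, was at 25.4 and 23.9 CPM in wild type, against 15.2 and 27.0 CPM in knockout 1 and 2. Knockout 1 alone was low, and the log2 fold change of -0.22 ± 0.31 turned to 0.08 without it and was -0.75 without knockout 2. Exons of Gorasp1 share 1331 bases with the opposite-strand gene Wdr48. Gorasp2, which encodes GRASP55 of the medial and trans cisternae, was at 113 and 108 CPM in Muc6 +/+ mucosa, against 112 and 121 CPM in Muc6 -/- mucosa. Those values overlapped (0.08 ± 0.15). Per kilobase of exon, Gorasp2 was 4.43 and 4.53 times the level of Gorasp1 in wild type, 7.39 times in knockout 1 and 4.48 times in knockout 2. Acbd3, a giantin-binding scaffold and a TFE3 target, was at 54.6 and 49.5 CPM in Muc6 +/+ mucosa, against 58.9 and 46.2 CPM in Muc6 -/- mucosa, where the knockout libraries enclosed the wild-type ones (0.01 ± 0.18). Golga7, a partner of the enzyme that palmitoylates Ras proteins (chromosome 8, 23241346 to 23257074), was at 139 and 112 CPM in Muc6 +/+ mucosa, against 89.4 and 91.3 CPM in Muc6 -/- mucosa. The knockout libraries lay close together and below wild type (-0.47 ± 0.18, edgeR adjusted p = 0.321, -0.50 without knockout 1 and -0.30 without wild type 1).

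Of all 38 genes, Golim4 differed most. It encodes GPP130, a membrane protein that cycles between the cis-Golgi and endosomes and is degraded when manganese is high (ENSMUSG00000034109.15, chromosome 3, 75875084 to 75956949). Golim4 was at 41.0 and 48.6 CPM in Muc6 +/+ mucosa, against 96.2 and 76.4 CPM in Muc6 -/- mucosa. Both knockout libraries lay above both wild-type libraries, by more than the libraries of either genotype lay apart (log2 fold change 0.94 with an SE of 0.19 for n = 2 against 2, edgeR adjusted p = 0.217, DESeq2 adjusted p = 0.0136). Without knockout 1 the value was 0.72, with an edgeR adjusted p of 0.273. The adjusted p ranged from 0.0136 to 0.738 over the alternatives.

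The other 3 Golgi membrane and membrane-associated proteins were not called by either tool. Golph3, which binds phosphoinositide at the trans-Golgi and pulls on its membrane (chromosome 15, 12321450 to 12351591), was at 366 and 301 CPM in Muc6 +/+ mucosa, against 226 and 271 CPM in Muc6 -/- mucosa. Its libraries did not overlap, and the value was -0.43 ± 0.22 with all libraries, -0.34 without knockout 1 and -0.27 without wild type 1. Exons of Golph3 share 450 bases with an opposite-strand gene. Golm1, which encodes GP73, was at 766 and 552 CPM in Muc6 +/+ mucosa, against 1078 and 729.6 CPM in Muc6 -/- mucosa, and overlapped (0.46 ± 0.33). Tmem165, a transporter that supplies manganese to Golgi glycosyltransferases, was at 43.2 and 43.1 CPM in Muc6 +/+ mucosa, against 38.3 and 50.5 CPM in Muc6 -/- mucosa. The wild-type libraries were nearly equal and the knockout libraries lay on either side of them (0.04 ± 0.18, edgeR adjusted p = 0.941).

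Golgi SNAREs, which fuse vesicles with cisternae, were not called. Gosr1 had a log2 fold change of -0.01 ± 0.13 and Gosr2 of 0.06 ± 0.15, and both overlapped between the genotypes. Gosr2 was at 72.3 and 61.5 CPM in Muc6 +/+ mucosa, against 73.6 and 66.4 CPM in Muc6 -/- mucosa.

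Among the 8 subunits of the COG complex, Cog7 was lower in knockout, and no other subunit differed by more than 0.23 on the log2 scale. Cog7 encodes a subunit of lobe B of the complex, and its loss causes a congenital disorder of glycosylation in humans (ENSMUSG00000034951.10, chromosome 7, 121879363 to 121981711). It was at 37.0 and 34.8 CPM in Muc6 +/+ mucosa, against 24.6 and 26.4 CPM in Muc6 -/- mucosa. The gap between the genotypes was wider than that within either (log2 fold change -0.49 with an SE of 0.13 for n = 2 against 2, edgeR adjusted p = 0.241). The adjusted p by DESeq2 was 0.148, and over the alternatives it ranged from 0.0864 to 0.738. Without knockout 1 the value was -0.49 as well. The subunits Cog1, Cog3 and Cog4 were higher without overlap, by 0.03, 0.22 and 0.23 on the log2 scale, and Cog2, Cog5, Cog6 and Cog8 overlapped, with log2 fold changes from -0.04 to 0.10.

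Levels of the COG subunits can be set beside each other per kilobase of exon, with all annotated exons of a gene merged. Exons of Cog5 share 1514 bases with Hbp1, those of Cog8 1306 with Pdf and those of Cog1 1116 with Fam104a. Those of Cog4 share 188 with Sf3b3, so the order of the subunits is uncertain. The mean over the 8 subunits was 8.26 and 7.495 CPM per kilobase in wild type, against 8.05 and 8.34 in knockout. Cog4 was highest in every library, at 13.0 and 10.8 CPM per kilobase in wild type, against 14.1 and 13.8 in knockout. Cog5 was lowest in wild type, at 4.82 and 4.23 CPM per kilobase, and Cog7 was lowest in knockout, at 3.79 and 4.07 against 5.71 and 5.36 in wild type. Cog7 thus stood at 0.662 and 0.687 of the mean of the other 7 subunits in wild type and at 0.438 and 0.454 of it in knockout.

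**Figure D3:**
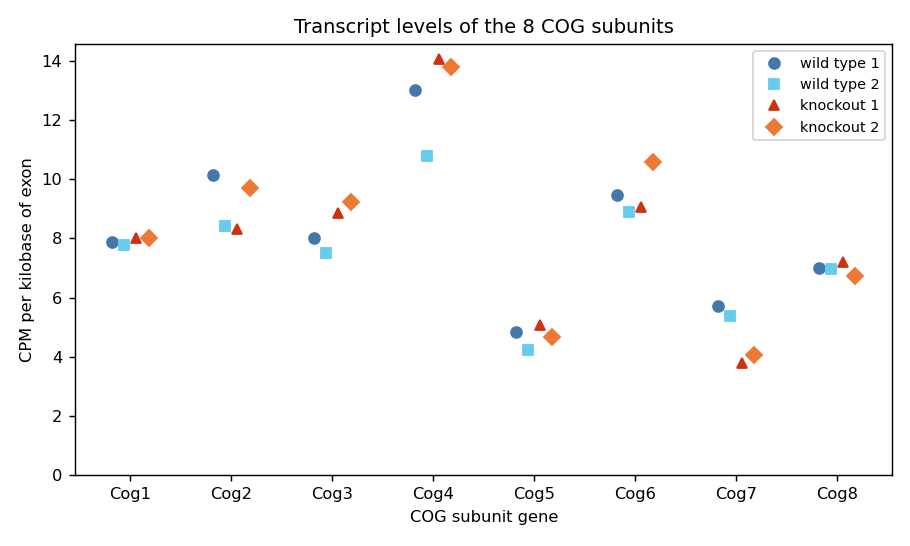
Transcript level of the 8 COG subunit genes in each library, in CPM per kilobase of exon (linear axis from 0). Cog7 lies at 5.71 and 5.36 in wild type, against 3.79 and 4.07 in knockout, and it is the only subunit with both knockout points below both wild-type points.

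The 8 regulators and targets of the Golgi stress response had 6 members higher and 2 lower, a median log2 fold change of 0.11 and no call. In the TFE3 branch, the transcription factor gene Tfe3 (X chromosome, 7762560 to 7775202) was at 26.2 and 24.2 CPM in Muc6 +/+ mucosa, against 31.5 and 27.0 CPM in Muc6 -/- mucosa, with the lower knockout library just above wild type 1 (0.22 ± 0.15, and 0.06 without knockout 1). Tfe3 is X-linked, and the genotypes also differed in Y-linked transcripts as given above. Its relative Tfeb was the lowest of all 38 genes per kilobase of exon. Tfeb was at 8.996 and 10.6 CPM in Muc6 +/+ mucosa, against 8.61 and 9.17 CPM in Muc6 -/- mucosa and overlapped (-0.14 ± 0.20, from -0.25 to -0.02 with a library left out, lowest without wild type 1 or knockout 2 and nearest 0 without wild type 2).

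None of the TFE3 targets among the members was called. Uap1l1, a relative of the enzyme that makes UDP-N-acetylglucosamine, was at 18.0 and 15.8 CPM in Muc6 +/+ mucosa, against 16.6 and 13.5 CPM in Muc6 -/- mucosa (-0.17 ± 0.18, from -0.38 without knockout 1 to -0.07 without wild type 1). Stx3, a SNARE of apical secretion, was at 55.0 and 47.6 CPM against 58.1 and 45.9 CPM (0.02 ± 0.18). Rab20, a small GTPase, was at 8.59 and 7.92 CPM against 10.1 and 7.52 CPM (0.10 ± 0.24). All 3 overlapped between the genotypes. Among these and Golgb1, Golga2 and Acbd3, which are also known TFE3 targets, Golga2 alone was higher without overlap and Golgb1 alone lower without overlap.

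In the CREB3 branch, both members were higher in knockout without overlap, as were 26.3% of all genes, and neither was called. Creb3, a membrane-bound transcription factor that is cut free in the Golgi (chromosome 4, 43562332 to 43567060), was at 44.0 and 37.5 CPM in Muc6 +/+ mucosa, against 58.4 and 50.7 CPM in Muc6 -/- mucosa (log2 fold change 0.42 ± 0.16, edgeR adjusted p = 0.324, and 0.27 without knockout 1). Its exons share 360 bases with the opposite-strand gene Tln1. Arf4, the GTPase gene that CREB3 switches on under Golgi stress, was at 258 and 240 CPM in Muc6 +/+ mucosa, against 317 and 276 CPM in Muc6 -/- mucosa (0.25 ± 0.19, and 0.10 without knockout 1). In both genes knockout 1 was the highest library.

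Serpinh1 encodes HSP47, a collagen chaperone of the endoplasmic reticulum that protects cells under Golgi stress. It was at 5.002 and 40.5 CPM in Muc6 +/+ mucosa, against 8.61 and 41.1 CPM in Muc6 -/- mucosa (chromosome 7, 99345376 to 99353239). Library 2 was high and library 1 low in both genotypes, and the log2 fold change was 0.13 with an SE of 1.24 (n = 2 against 2, edgeR adjusted p = 0.976). It was -0.70 without wild type 1 and -1.48 without knockout 2. The 8 fibroblast and matrix genes listed, none at 0 in any library, summed to 55.1 and 618 CPM in Muc6 +/+ mucosa, against 76.9 and 549 CPM in Muc6 -/- mucosa, and 6 smooth muscle genes, none at 0, to 323 and 2006 CPM against 430 and 2084 CPM. The part of these markers in the Serpinh1 values was not tested. As a share of the fibroblast sum, Serpinh1 was 9.07% and 6.54% in wild type, against 11.2% and 7.49% in knockout.

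**Figure D4:**
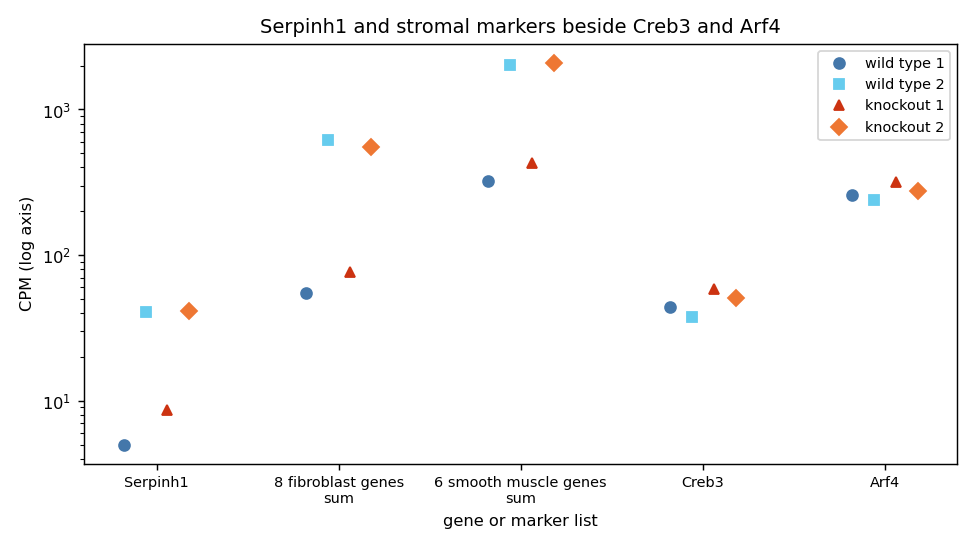
Levels in CPM (log axis) of Serpinh1, of the sums of 8 fibroblast and 6 smooth muscle genes, and of Creb3 and Arf4 in each library. Serpinh1 and both sums are high in wild type 2 and knockout 2 and low in wild type 1 and knockout 1, while Creb3 and Arf4 are higher in both knockout libraries than in wild type.

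Levels of the members spanned a wide range per kilobase of exon. Golm1 was highest, at 173 and 125 CPM per kilobase in wild type, against 244 and 165 in knockout. Golph3 came next in wild type, at 112 and 92.5 CPM per kilobase against 71.6 and 66.6 for Arf4. In knockout 1 the order of these was the other way, with Arf4 at 88.0 and Golph3 at 69.4, and in knockout 2 they stood at 76.7 and 83.2. Below them the mean over 4 libraries dropped to 27.4 for Gorasp2, and the next members, from Golga4 at 21.3 to Golga7 at 16.04, lay close together. Tfe3, at 2.94, and Tfeb, at 1.65, were the lowest. Tfe3 was 1.78 and 1.39 times Tfeb in wild type and 2.24 and 1.81 times in knockout.

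The knockout libraries differed in how far they lay from wild type. In knockout 1 the median size of the log2 difference from the wild-type mean was 0.187 over the members and 0.445 over all genes tested. In knockout 2 it was 0.154 over the members and 0.297 over all genes. Of the 38 members, 22 lay on the same side of the wild-type mean in both knockout libraries. Between libraries of a genotype, the median size of the log2 difference over the members was 0.16 for wild type, and for knockout it was 0.183. Over all genes tested it was 0.244 for wild type and 0.335 for knockout, so the members varied less within a genotype too. Of the 38 members, 33 were lower in wild type 2 than in wild type 1, and 22 lower in knockout 2 than in knockout 1. The shares of all genes for these counts, and for members on the same side, were not computed. The counts therefore cannot show whether the members differ from other genes in this. Besides Serpinh1, the widest gaps in knockout were Gorasp1 (0.83 higher in knockout 2) and Golm1 (-0.56).

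Other genes of the Golgi and of the Golgi stress response were described from lists outside the 38. None of their genes was called by edgeR over all genes. Of the genes named in the following paragraphs, DESeq2 called Atp2c2, Atp2c1, Creb3l3, Fnip2, St3gal1, Glce and Galnt5, and it called 7.42% of all genes. Up to 3 genes per list were picked for the smallest edgeR p in these same data. Their calls therefore cannot be compared with that share. Of 52 further trafficking and matrix genes, 21 were higher and 31 lower, with a median log2 fold change of -0.06, and the libraries did not overlap in 7 that were higher, beside 26.3% of all genes, and in 18 that were lower, beside 23.8%. Atp2c2, a secretory-pathway calcium and manganese pump, was at 3.27 and 2.55 CPM in Muc6 +/+ mucosa, against 35.6 and 15.1 CPM in Muc6 -/- mucosa (3.12 ± 0.51, edgeR adjusted p = 0.209). Its widespread relative Atp2c1 was at 142 and 131 CPM in Muc6 +/+ mucosa, against 93.1 and 95.0 CPM in Muc6 -/- mucosa (-0.54 ± 0.15, edgeR adjusted p = 0.25). Both had libraries that did not overlap, in opposite directions, and without knockout 1 they stood at 2.33 and -0.57. Trappc9, a subunit of the TRAPP tether, was at -0.46 ± 0.16.

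Of the 5 other ARF GTPases, 1 was higher and 4 lower (median log2 fold change -0.04). Arf2 was at 14.7 and 17.7 CPM in Muc6 +/+ mucosa, against 11.0 and 12.5 CPM in Muc6 -/- mucosa (-0.46 ± 0.18), and Arf3 had a log2 fold change of -0.22 ± 0.17, which was -0.08 without wild type 1 and -0.35 without wild type 2. In the CREB3 family, 3 relatives were higher and 1 lower (median 0.55). Creb3l3, known from liver and intestine, was at 1.86 and 0.781 CPM in Muc6 +/+ mucosa, against 27.2 and 9.21 CPM in Muc6 -/- mucosa (3.77 ± 0.78, and 2.76 without knockout 1). The 6 intestinal markers listed, of which 1, 3, 1 and 3 were at 0 in wild type 1, wild type 2, knockout 1 and knockout 2, summed to 78.8 and 46.4 CPM in Muc6 +/+ mucosa, against 406 and 97.8 CPM in Muc6 -/- mucosa, and their part in this was not tested. Creb3l2 was at 33.3 and 48.7 CPM in Muc6 +/+ mucosa, against 22.8 and 31.5 CPM in Muc6 -/- mucosa (-0.59 ± 0.28, -0.30 without wild type 2 and -0.91 without knockout 2).

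Of 11 relatives and lysosomal targets of TFE3, 9 were tested, with 2 higher and 7 lower (median log2 fold change -0.21). Fnip2, a partner of the folliculin complex that holds TFE3 in the cytoplasm, was at 42.6 and 42.8 CPM in Muc6 +/+ mucosa, against 25.4 and 27.6 CPM in Muc6 -/- mucosa (-0.69 ± 0.12). Its relative Fnip1 was at -0.38 ± 0.16 (-0.59 without knockout 2), and Rragd, a GTPase gene that TFE3 and TFEB switch on, was at 7.31 and 8.59 CPM in Muc6 +/+ mucosa, against 12.4 and 21.4 CPM in Muc6 -/- mucosa (1.09 ± 0.33, and 0.58 without knockout 2). Among lysosomal genes of the list, the log2 fold change of Lamp1 was -0.22, that of Ctsd -0.21, that of Sqstm1 0.05 and that of Mcoln1 -0.06. Of 4 tested TFE3 Golgi targets outside the 38, St3gal1, a sialyltransferase, was at 23.5 and 25.8 CPM in Muc6 +/+ mucosa, against 4.31 and 11.7 CPM in Muc6 -/- mucosa (-1.63 ± 0.52, -1.13 without knockout 1 and -2.57 without knockout 2). St3gal6 was at -0.44 ± 0.15 and Nagpa at 0.47 ± 0.15.

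In the proteoglycan branch, 3 of 6 genes were higher and 3 lower (median log2 fold change -0.04). Glce, which epimerises heparan sulfate, was at 15.3 and 16.3 CPM in Muc6 +/+ mucosa, against 28.8 and 26.9 CPM in Muc6 -/- mucosa (0.82 ± 0.13, and 0.72 without knockout 1). Ndst2 was at 0.16 ± 0.14 (0.06 without knockout 1), and the regulator Klf2 overlapped between the genotypes. In the mucin branch, 3 of 5 genes were tested, and Galnt5, which starts mucin O-glycans, was at 8.22 and 7.11 CPM in Muc6 +/+ mucosa, against 31.2 and 25.2 CPM in Muc6 -/- mucosa (1.88 ± 0.19, and 1.67 without knockout 1). The other tested genes of that branch, Chst4 and Galnt18, overlapped, and B3gnt6 and Muc20 did not pass the filter on low counts.

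**Figure D5:**
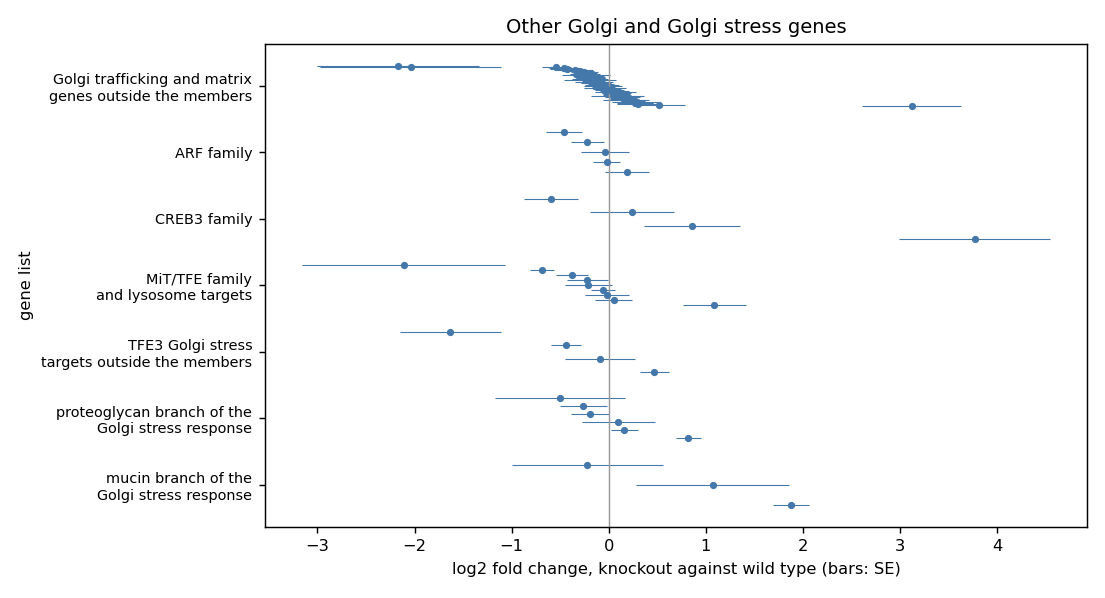
Log2 fold change (points) and its SE (bars) of the tested genes in 7 further lists of Golgi and Golgi stress genes. The 52 trafficking and matrix genes have a median of -0.06, with Atp2c2 (3.12) far to the right and Gga2 and Rab30 far to the left, and Creb3l3 (3.77), Galnt5 (1.88) and Mitf (-2.11) stand apart in other lists.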

How the data were processed

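RNA of gastric corpus mucosa was sequenced in 4 libraries, 2 from Muc6 +/+ and 2 from Muc6 -/- mice. Per the labels' protocols a stranded messenger RNA kit was used, and per the submitters' processing notes the build was mm10. Aligner, counting program and use of strand in counting: not given in the sources used here. The deposited values are estimated counts, not normalized. Of the nonzero values 35% were not whole, and all were rounded before testing. Symbols, positions and exon lengths come from GENCODE release M21 (34652 of 34866 rows matched).

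Genotypes were compared on 14067 genes with edgeR 4.0.16 in R 4.3.3, using the robust quasi-likelihood test, TMM factors and filterByExpr (minimum count 10), and p-values were adjusted over these genes by Benjamini-Hochberg at 0.05. Each SE was obtained as the absolute log2 fold change over the root of F. Library sizes for CPM included the TMM factors. Alternatives were DESeq2 1.42.0, limma 3.58.1 voom, other factors and filters, a replicate block and leaving out each library. A bias-adjusted edgeR fit was added after seeing the data. The procedure was also run on simulated data, whose outcome is not reported here. Members without overlap and with a log2 fold change of at least 0.4 in size, and the core stacking and stress genes, are given by library, as are up to 3 genes per further list with the smallest p among those without overlap. Golm1, Tmf1, Uso1, Gosr2, Lamp1, Ctsd, Sqstm1, Mcoln1, Klf2, Chst4, Galnt18, Gga2, Rab30, Mitf, Creb3l1 and Creb3l4 were named after their values were seen. The members, lists and rules were chosen with earlier results of these data known.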

Additional observations from a re-analysis of the deposited data

How the results depend on the processing

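The number of genes called by edgeR was 0 with all libraries, 9 without the filter on low counts, 1044 by DESeq2, and 0 to 851 when a library was left out, the most without knockout 2. Among the 38 genes the count was 0 under every alternative except DESeq2 (1, Golim4), and 0 to 0 when a library was left out. The median log2 fold change of the members ranged from -0.030 to 0.095 and the number higher from 16 to 25 when a library was left out. Another scaling moved the median of all genes by at most 0.03 on the log2 scale. Without wild type 1, wild type 2, knockout 1 or knockout 2 that median moved by 0.038, 0.039, -0.054 and -0.069. Log2 fold changes given with a library left out include this shift. Acbd3 turned to -0.01 with relative log expression factors, to -0.03 without a filter and to -0.01 by DESeq2, and Stx3 to -0.02 without a filter and to -0.00015 by DESeq2. With a library left out, log2 fold changes ranged from -1.48 to 2.31 for Serpinh1, from -0.75 to 0.08 for Gorasp1, from -0.03 to 0.11 for Gorasp2, from -0.22 to 0.13 for Acbd3, from -0.21 to 0.13 for Stx3, from -0.18 to 0.24 for Rab20 and from -0.22 to 0.18 for Tmem165, all of which changed sign. The cause was not tested. With the sample number as a replicate block, 0 genes and 0 members were called, and 3349 genes had an unadjusted p below 0.05 against 2236 without it. Deviations of same-numbered libraries correlated at 0.517, but with 2 pairs the samples share only a number. With 2 libraries against 2, an exact permutation test cannot give a p below 0.33.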

Other observations

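Cog7 and Gga2, which encodes an adaptor for clathrin coats at the trans-Golgi, are neighbours on the same strand of chromosome 7, with 5010 bases between them. Gga2 was at 222 and 214 CPM in Muc6 +/+ mucosa, against 15.6 and 81.3 CPM in Muc6 -/- mucosa (log2 fold change -2.17 ± 0.84), and Cog7 was at 37.0 and 34.8 CPM against 24.6 and 26.4 CPM. Both were lower in knockout without overlap, Gga2 far more in knockout 1 and Cog7 about equally in both. Rab30, a Golgi GTPase, at 8.11 and 8.60 CPM against 0.538 and 3.52 CPM, and Mitf, a relative of TFE3, at 20.2 and 20.2 CPM against 0.897 and 8.42 CPM, were lower in the same order of libraries. The parietal cell sum followed that order too, at 20566 and 19503 CPM against 2155 and 7283 CPM, and its part in these values was not tested.

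Creb3l4 was at 24.0, 24.7 and 24.5 CPM in wild type 1, wild type 2 and knockout 1 and at 63.9 CPM in knockout 2, and Creb3l1 was highest in knockout 2 as well, at 164 CPM against 97.3, 103 and 71.4 CPM.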
